A study of Mus musculus with 4 samples.

Results

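The genes described here encode the integrins, the laminins and fibronectin, 37 of the 31053 genes in the series, chosen by name: Fn1, 18 integrin α chains, 8 integrin β chains and 10 laminin chains. They were followed through 4 droplet single-cell RNA libraries, 1 for each of 4 groups set by tissue and treatment. The mice carried subcutaneous grafts of MycCap, a prostate cancer line from HiMyc mice. In HiMyc mice c-Myc is driven in the prostate by the probasin promoter. The grafted mice were FVB by the study's methods (VFB in the labels) and were fed chow. Tumor_PBS and Tumor_D-CAN hold cancer cells with stromal and vascular cells of the graft, and SAT_PBS and SAT_D-CAN hold stromal and vascular cells of subcutaneous adipose tissue. In D-CAN, a sequence that finds adipose stromal cells is joined to an amphipathic, cell-killing one of D-amino acids, and PBS served as its control. Dead cells and red blood cells had been removed from all 4 suspensions. Whether a library pooled mice, and whether tumor and adipose cells came from the same animals, is not given in the sources used here.

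Integrins are cell-surface receptors made of an α and a β chain, and the pairing sets which matrix protein a cell can hold. Laminins, trimers of an α, a β and a γ chain, build the basement membrane under epithelium and around vessels, smooth muscle and fat cells, whereas fibronectin is assembled into fibrils in the interstitial matrix of wounds and tumors. The α3, α6 and α7 chains with β1, and α6 with β4, bind laminins. The α5β1 receptor and the αv receptors bind the RGD sequence of fibronectin and related proteins, α1, α2, α10 and α11 bind collagens, and the β2 and β7 chains belong to leukocyte receptors.

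The libraries held 2830, 1525, 2851 and 1922 cell barcodes in the order Tumor_PBS, Tumor_D-CAN, SAT_PBS and SAT_D-CAN, with 17996284, 15672787, 6667064 and 7444729 unique molecular identifiers (UMIs, counts of captured RNA molecules). No pair of libraries shared more than 2 barcodes. Cells with at least 200 genes were sorted into classes by 12 markers a class, none of them a gene of interest here, and 73.7%, 80.8%, 78.5% and 92.0% of them found a class. The rest had a median mitochondrial share of 28.1%, 35.6%, 4.34% and 20.3%, and 18.3%, 14.7%, 12.7% and 4.41% of cells lay near the limit of the sort. This varied by class, from 19 of 33 dendritic cells of SAT_PBS to 0 of 65 fibroblasts of SAT_D-CAN. Tumor_PBS gave 1230 cancer cells, 83 fibroblasts, 56 mural cells (pericytes and vascular smooth muscle), 92 endothelial cells and 551 macrophages. Tumor_D-CAN gave 645, 63, 34, 65 and 348 of these, and 22 T or NK cells. SAT_PBS gave 211 fibroblasts, 34 mural cells, 483 endothelial cells, 56 macrophages, 33 dendritic cells, 675 T or NK cells and 720 B cells, and SAT_D-CAN gave 65, 39, 167, 28, 50, 724 and 653. The names rest on rebuilt classes, and "cancer cell" means a cell with epithelial markers. Median UMIs per SAT fibroblast were 1038 with PBS and 5993 with D-CAN, a depth gap that scaling to CPM does not remove for rare RNAs.

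Levels are given as UMIs per 1000000 UMIs of the class (CPM) with exact Poisson 95% intervals, and shares with exact binomial (Clopper-Pearson) 95% intervals, all of which cover counting error only. With 1 library a group there are no biological replicates, so no difference below has a test against replicate spread. Each UMI marks the 3′ end of 1 molecule, so levels of different genes can be set side by side on the CPM scale without a length correction, but splice forms, such as the extra domains of fibronectin, cannot be told apart. All 37 genes had UMIs in both tumor libraries and 36 in both SAT libraries, where Lama1 was at 0. Itga10, Itgad and Lama1 had at most 9 UMIs in any library and Itga2b at most 16, too few to place in a class.

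Fibronectin RNA was highest in fibroblasts of all 4 libraries. In the tumor Fn1 (chr1:71585520-71653200, minus strand, mm10) stood at 3361 CPM in fibroblasts with PBS and 3259 CPM with D-CAN, and in SAT at 2796 and 2039 CPM. Mural cells came next in the tumor, at 1667 and 2563 CPM, but in SAT they held less than endothelial cells and macrophages, at 69.5 CPM (7 UMIs) and 11.1 CPM (2 UMIs). Tumor macrophages held 593 and 568 CPM and tumor endothelial cells 578 and 377 CPM, and the corresponding SAT cells 183 and 140 CPM and 94.7 and 36.9 CPM.

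Cancer cells carried Fn1 at 308 CPM (298 to 317) with PBS and 290 CPM (281 to 300.1) with D-CAN, the lowest of the 5 large tumor classes. They were the most numerous class, with a median of 11309.5 and 18438 UMIs per cell against 4170 and 7747 in tumor fibroblasts, and supplied 64.5% and 53.7% of the Fn1 UMIs of all sorted tumor cells, against 18.4% and 26.5% from fibroblasts. In SAT, fibroblasts supplied 87.4% and 92.2%. A class total of this kind depends on how many cells of each type the dissociation released, and fewer cells of a type and less RNA per cell cannot be told apart in it.

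RNA released by other cells can enter a droplet, so fibroblast markers were read beside Fn1. In cancer cells Fn1 reached 9.15% and 8.91% of its fibroblast level, whereas the summed fibroblast markers reached 0.394% and 0.400% of theirs. In tumor macrophages the same pair of values was 17.6% against 0.879% with PBS and 17.4% against 1.78% with D-CAN, and in tumor endothelial cells 17.2% against 0.971% and 11.6% against 0.375%. In tumor mural cells it was 49.6% against 6.77% and 78.6% against 12.2%. Tumor endothelial cells also held 851 and 1691 CPM of summed mural markers, against 5062 and 3534 CPM in tumor mural cells. The fibroblast and mural markers are those of the sort, which keeps cells rich in them out of the other classes. The low shares were thus partly set beforehand, and the part of carried-over RNA in the Fn1 values was not tested. B cells of SAT, which should lack the gene, had an Fn1 UMI in 0.694% and 0.306% of cells, against 77.7% and 60.0% of SAT fibroblasts and 75.9% and 79.8% of cancer cells. With every cell thinned to 1000 UMIs these became 0.159% and 0.162%, 75.9% and 49.2%, and 25.2% (22.8 to 27.7) and 20.2% (17.1 to 23.5). The B cells of SAT cannot show the background of the tumor libraries, which held 7730 and 6997 Fn1 UMIs against 1480 and 884 in SAT. In Tumor_D-CAN the 22 T or NK cells held 1 Fn1 UMI (21.7 CPM).

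**Figure D1:**
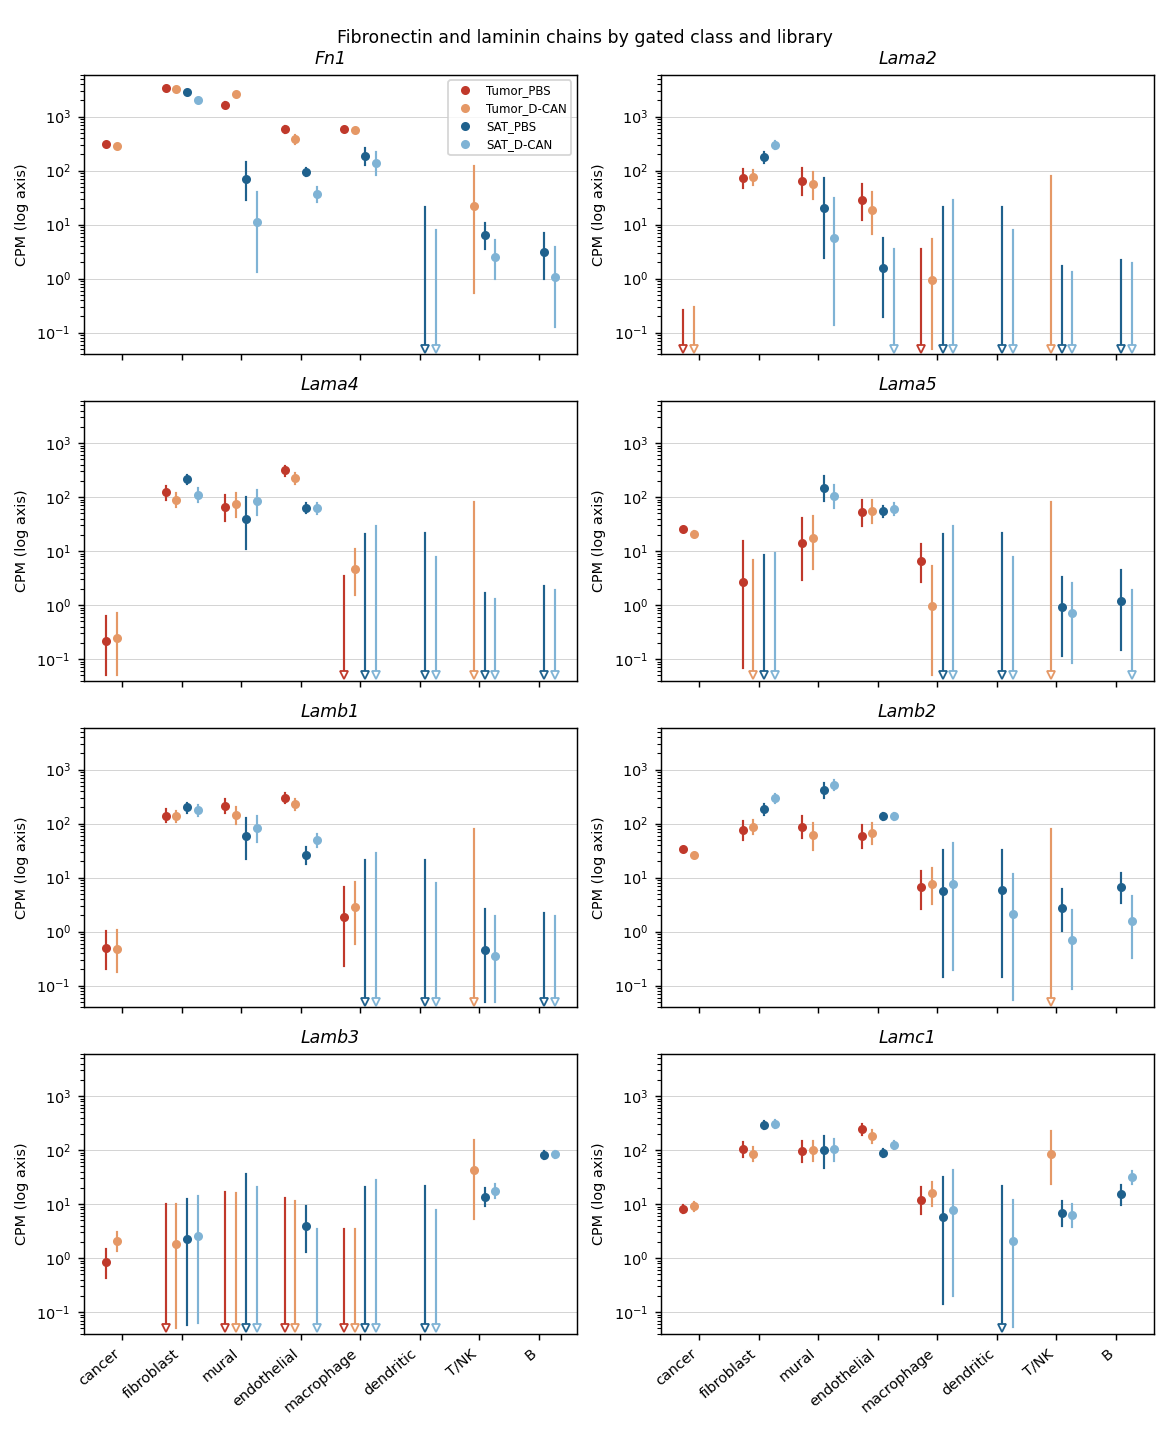
Levels of fibronectin and laminin chains (CPM, log axis) in each sorted class of the 4 libraries, with exact Poisson 95% intervals for counting error and open arrows where no UMI was found. Fn1 is highest in fibroblasts of every library (2039 to 3361 CPM), and mural cells come next in the tumor (1667 and 2563 CPM) but not in SAT.

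Per class, most laminin chains were highest in fibroblasts, mural cells or endothelial cells. By total UMIs, cancer cells supplied 93.2% and 91.8% of Lama5, 87.3% and 77.9% of Lamb2 and 45.0% and 43.2% of Lamc1 among sorted tumor cells, and 3.63% and 3.14% of Lamb1. Lama4, the α chain of vessel laminins, was highest in tumor endothelial cells, at 312 CPM with PBS and 224 CPM with D-CAN, and lower in SAT endothelial cells, at 63.1 and 62.4 CPM. In SAT its highest class was the fibroblasts, at 214 and 112 CPM, which in the tumor held 122 and 88.5 CPM. Lama2, the α chain of muscle and stromal basement membranes, was a fibroblast gene in SAT, at 175 and 297 CPM against at most 19.9 CPM elsewhere. In the tumor it was shared by fibroblasts, at 73.4 and 75.6 CPM, and mural cells, at 65.2 and 56.1 CPM.

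Lama5, the second α chain of mature vessel and epithelial basement membranes, was steady in endothelial cells, at 53.2 and 55.1 CPM in the tumor and 54.4 and 59.5 CPM in SAT. Mural cells of SAT held 149 and 106 CPM of it and those of the tumor 14.0 and 17.3 CPM. Cancer cells carried 25.2 and 21.0 CPM, and Lama5 made up nearly all of their Lama4 and Lama5 together, with a Lama4 share of 0.8% and 1.1%. Fibroblasts showed the reverse, with Lama4 making up 97.8% to 100% of the pair. The Lama4 share in endothelial cells was 85.4% (77.1 to 91.6) and 80.2% (70.6 to 87.8) in the tumor and 53.7% (45.3 to 61.9) and 51.2% (42.2 to 60.1) in SAT, ranges that do not overlap between tissues. Lama3, the α chain of epithelial laminins, stood at 2.69 and 3.08 CPM in cancer cells and at 9.47 and 13.2 CPM in SAT endothelial cells.

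The balance of the β chains Lamb1 and Lamb2 differed between the tissues in vessel cells. They occupy the same position in the trimer, Lamb1 in the laminins of embryonic and growing tissue and Lamb2 in those of mature vessels, muscle and kidney. In endothelial cells Lamb1 stood at 305 and 227 CPM in the tumor and at 26.0 and 50.1 CPM in SAT, whereas Lamb2 stood at 60.3 and 67.4 CPM in the tumor and at 137 and 136 CPM in SAT. In mural cells Lamb1 was 214 and 142 CPM in the tumor and 59.6 and 83.3 CPM in SAT, and Lamb2 was 88.5 and 60.4 CPM in the tumor and 417 and 522 CPM in SAT, its highest level anywhere. As a share of both, Lamb1 made up 83.5% (74.9 to 90.1) and 77.1% (67.4 to 85.0) of endothelial UMIs in the tumor and 15.9% (11.2 to 21.7) and 26.9% (20.8 to 33.7) in SAT. In mural cells it made up 70.8% and 70.2% in the tumor and 12.5% and 13.8% in SAT. The gap was smaller in fibroblasts, at 65.0% and 61.5% against 52.1% and 37.6%. Cancer cells used almost only Lamb2, with a Lamb1 share of 1.4% and 1.8%. The sorted mural cells of the tissues also differed in other genes, given below, and the part of this difference in the shares was not tested.

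The stretches at the start of both genes are printed because the balance of these β chains differed between the tissues. They are the 250 bases upstream of the RefSeq start on GRCm38.p6, both on the plus strand, 5′ to 3′, and capitals mark matches of GGGCGG or its reverse complement CCGCCC, the GC box. Gene positions here are from a GENCODE annotation, which starts both genes earlier. By it the last 59 bases of the Lamb1 stretch and the last 126 of the Lamb2 stretch lie inside the gene. The Lamb1 stretch is chr12:31265043-31265292 and the Lamb2 stretch chr9:108479612-108479861.
Lamb1: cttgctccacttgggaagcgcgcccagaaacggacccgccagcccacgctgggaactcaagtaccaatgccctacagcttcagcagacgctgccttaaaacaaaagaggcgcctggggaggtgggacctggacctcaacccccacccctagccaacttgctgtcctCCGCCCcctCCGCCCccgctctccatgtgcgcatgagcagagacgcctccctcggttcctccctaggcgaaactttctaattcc
Lamb2: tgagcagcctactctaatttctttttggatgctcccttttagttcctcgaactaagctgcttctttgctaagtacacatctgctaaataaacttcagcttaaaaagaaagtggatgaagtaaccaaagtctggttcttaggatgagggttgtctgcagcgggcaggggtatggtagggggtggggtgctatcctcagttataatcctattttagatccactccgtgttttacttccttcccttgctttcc
The Lamb1 stretch is 62% G and C and holds 2 matches, and the Lamb2 stretch is 43.6% G and C and holds 0. Among 32851 such stretches in the genome 32.7% hold the motif and the median G and C share is 52.4%, so either state is common, and a match says nothing of a factor being bound. The motif was chosen after the levels were known, and 23 of the 37 genes had such a stretch in the table used.

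**Figure D2:**
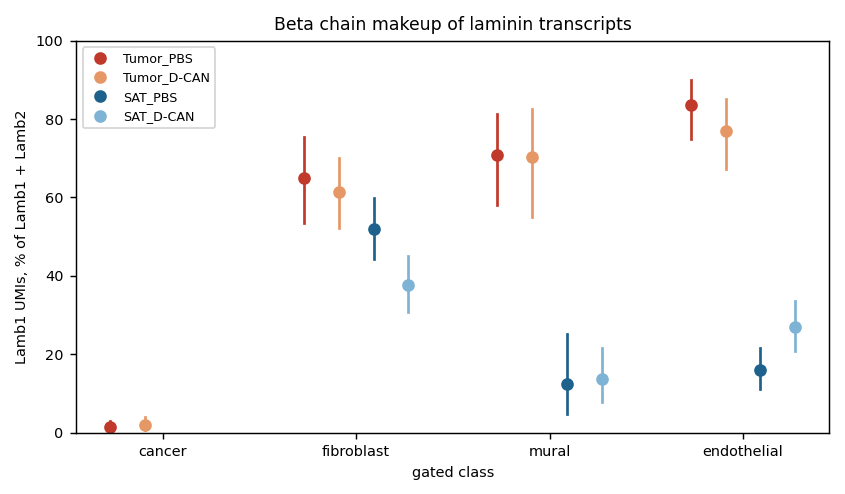
Share of Lamb1 among Lamb1 and Lamb2 UMIs (percent, y axis) by class and library, with exact binomial 95% intervals. Endothelial and mural cells of the tumor sit at 70.2% to 83.5% and those of SAT at 12.5% to 26.9%.

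Lamc1, the γ chain of most laminins, followed fibroblasts in SAT, at 298 and 307 CPM, and endothelial cells in the tumor, at 245 and 181 CPM. Lamc3, a γ chain of restricted use, reached its highest level in SAT mural cells, at 19.9 and 55.6 CPM (2 and 10 UMIs). Lamb3, the β chain of epithelial anchoring laminin, behaved unlike the others. It stood at 80.8 and 83.5 CPM in B cells of SAT and 13.9 and 17.7 CPM in T or NK cells, against 0.851 and 2.11 CPM in cancer cells. Its annotated span (chr1:193207699-193343878) also holds Hsd11b1 and G0s2 on the opposite strand, at 5.47 and 7.88 CPM and at 0.608 and 0 CPM in the same B cells, and 4930570N18Rik on its own strand, at 1.22 and 1.05 CPM. The 3′ counts do not show which transcript of that span they came from. Of the 37 genes, 16 overlap another gene in the annotation, 4 of them (Itga1, Itga10, Itgam and Lamb3) on the same strand, and such pairs are less certain.

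Of the integrins, Itgb1 (chr8:128685654-128733200, plus strand), the common β chain of most matrix receptors, was the most abundant integrin chain in cancer cells, fibroblasts, mural cells and endothelial cells. It was highest in mural cells, at 1136 and 1143 CPM in the tumor and 635 and 628 CPM in SAT, and next in endothelial cells, at 993 and 909.7 CPM and 441 and 396 CPM. Tumor fibroblasts held 696 and 813 CPM and SAT fibroblasts 298 and 190.4 CPM, and cancer cells held 219.8 and 220.0 CPM. B cells of SAT, at 37.1 and 23.6 CPM, were the lowest class.

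Among laminin receptors, Itga6 was an endothelial chain, at 252 and 263 CPM in the tumor and 319.5 and 395 CPM in SAT. It was also present in T or NK cells of SAT, at 88.1 and 92.4 CPM, and in tumor macrophages, at 64.9 and 77.1 CPM. Cancer cells held 18.4 and 20.9 CPM. Epithelial RNA in tumor macrophages amounted to 14.2% and 9.02% of its level in cancer cells, which applied to Itga6 gives 2.61 and 1.88 CPM. RNA of endothelial cells, the class with the most Itga6, was not read this way. The same epithelial genes stood at 153 and 98.1 CPM in tumor macrophages and at 62.9 and 7.78 CPM (11 UMIs and 1 UMI) in SAT macrophages. Their share thus does not measure cancer-cell RNA alone. The part of carried-over RNA in the macrophage value was not tested. Itga3, the other laminin receptor of epithelium, was highest in cancer cells, at 29.1 and 28.6 CPM, and stood at 14.2 and 9.19 CPM in tumor and 15.8 and 15.1 CPM in SAT endothelial cells. Itgb4, the hemidesmosome chain that pairs only with Itga6, was nearly absent from cancer cells, at 0.354 and 0.162 CPM (5 and 2 UMIs), and reached 24.8 and 30.6 CPM in tumor and 20.5 and 30.2 CPM in SAT endothelial cells. Itga7, the laminin receptor of muscle, was a mural chain, at 119 and 194.5 CPM in SAT and 23.3 and 25.9 CPM in the tumor.

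Among receptors for fibronectin and other RGD proteins, Itga5, the α chain of the classical fibronectin receptor, was highest in tumor endothelial cells, at 88.7 and 98.0 CPM, and tumor mural cells, at 74.5 and 94.9 CPM. SAT endothelial cells held 28.4 and 35.0 CPM. Itgav was highest in tumor mural cells, at 154 and 159.6 CPM, followed by tumor fibroblasts, at 125 and 103 CPM, and cancer cells held 13.5 and 14.6 CPM. Itgb5, which pairs with αv, was highest in the same stromal classes, with 443 and 398 CPM in tumor fibroblasts and 335 and 475 CPM in tumor mural cells. Tumor macrophages held 282 and 254 CPM and cancer cells 105 and 102 CPM. Itgb3, the αv partner of growing vessels, was found in tumor endothelial cells, at 81.6 and 30.6 CPM, and was almost absent from SAT endothelial cells, at 2.37 and 3.78 CPM (3 and 4 UMIs). Fibroblasts also held Itgb3, at 32.6 and 29.5 CPM in the tumor and 43.2 and 12.7 CPM in SAT. Itgb6, the epithelial αv partner, stood at 5.88 and 6.66 CPM in cancer cells. Itgb8, another αv partner, stayed at or under 34.9 CPM, in SAT dendritic cells. Itga8, the nephronectin receptor of smooth muscle, was a mural chain of SAT, at 99.3 and 111 CPM. Itga9, which binds tenascin and a splice form of fibronectin, reached 39.0 and 33.7 CPM in tumor endothelial cells.

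The collagen receptor chains were divided among stromal classes. Itga1 was highest in tumor mural cells, at 605 and 453 CPM, with tumor endothelial cells at 159.6 and 254 CPM. In SAT the mural level, 258 and 333 CPM, and the endothelial level, 260.4 and 320.4 CPM, did not differ beyond counting error. Itga11 was highest in fibroblasts, at 73.4 and 62.7 CPM in the tumor and 47.7 and 27.9 CPM in SAT, with tumor mural cells next at 32.6 and 51.8 CPM. Itga2 stayed at or under 21.3 CPM in every class.

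The leukocyte chains marked immune classes. In tumor macrophages Itgam was the main α chain of β2 integrins, at 182.5 and 207 CPM, with Itgb2 at 127 and 115 CPM, Itgax at 34.8 and 30.5 CPM and Itgal at 15 and 21 UMIs. SAT macrophages held more Itgal, at 97.2 and 265 CPM, beside 126 and 195 CPM of Itgam and 189 and 233.5 CPM of Itgb2. T or NK cells of SAT carried Itgb7, at 182 and 215 CPM, Itgal, at 97.8 and 85.6 CPM, and Itgae, the epithelium-homing partner of β7, at 32.0 and 36.4 CPM. Itga4, the α chain of the VCAM-1 receptor, was highest in dendritic cells of SAT_PBS, at 116 CPM, and macrophages of SAT_D-CAN, at 187 CPM (24 UMIs). Dendritic cells of SAT_D-CAN held 93.2 CPM, B cells 79.0 and 56.2 CPM, and mural cells of SAT_D-CAN 72.2 CPM (13 UMIs). T or NK cells, at 39.9 and 42.1 CPM, supplied 34.0% and 38.6% of the Itga4 UMIs.

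Itgb7 also appeared in SAT fibroblasts, where a leukocyte chain was not looked for beforehand. It stood at 70.5 CPM (31 UMIs) with PBS and 104 CPM (41 UMIs) with D-CAN, in 13 cells of each library, and tumor fibroblasts had 0 and 2 UMIs. This was 38.7% and 48.5% of its level in T or NK cells. A list of leukocyte genes, chosen after the Itgb7 values were seen, stood at 6.57% and 0.758% of its level there. The sort keeps cells rich in leukocyte markers out of the fibroblast class, so these low shares were partly set beforehand. The part of carried-over RNA in the Itgb7 values was not tested. In 1 cell of each SAT library lay 7 of 31 and 11 of 41 of the fibroblast Itgb7 UMIs. The α partners of β7 were at the limit of detection in SAT fibroblasts, with 3 and 0 UMIs of Itga4 and 2 and 0 UMIs of Itgae.

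**Figure D3:**
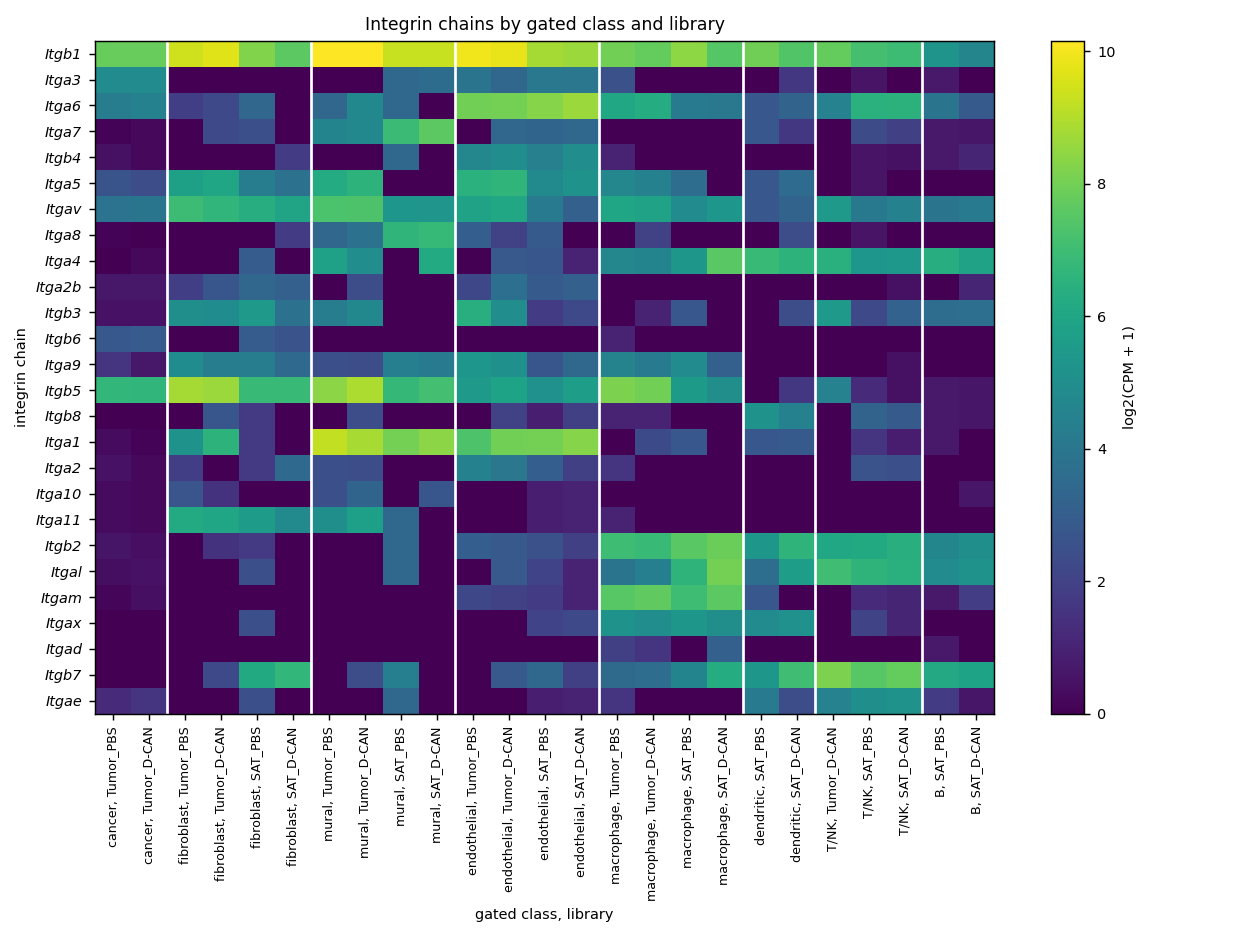
Levels of the integrin chains (colour, log2 of CPM plus 1) in each sorted class of the 4 libraries. Itgb1 spans the classes, Itga6 is highest in endothelial cells, Itga1 in mural and endothelial cells, and the β2 and β7 chains in leukocytes.

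To match receptors to ligands, a chain was counted as present in a class when it reached 10 CPM, and 10% of its highest class in the same library, in both libraries of a tissue. Of the 24 known α and β pairs, both chains were present in 33 of 120 pairs of class and receptor in the tumor and 37 of 168 in SAT. The count is of RNA and not of assembled protein. All 3 chains of a laminin trimer, out of 10 trimers, were present in 16 of 50 cases in the tumor and 14 of 70 in SAT, all in fibroblasts, mural cells and endothelial cells.

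Cancer cells met the rule for 1 receptor, Itga3 with Itgb1, a laminin receptor, and for no laminin trimer. Some chains stayed outside it although cancer cells, being numerous, supplied much of their tumor UMIs. These were Itga6 (64.4% and 59.4%) and Itgav (54.4% and 50.4%), both under 10% of their highest class, and Lamc1, at 8.22 and 9.25 CPM. Tumor endothelial cells met it for 8 receptors, among them the laminin receptors α6β1 and α6β4 and the fibronectin receptors α5β1, αvβ1 and αvβ3, and for 6 trimers built of Lama2, Lama4 or Lama5 with Lamb1 or Lamb2 and Lamc1. SAT endothelial cells met it for 5 receptors, with α5β1 but without any αv receptor, and for 4 trimers, without Lama2. Their Itgav stood at 16.6 CPM (21 UMIs) with PBS and 7.56 CPM (8 UMIs) with D-CAN, and only the latter lay under the limit of 10 CPM. Fibroblasts of both tissues met the rule for the same 6 receptors, α5β1, α9β1, α11β1, αvβ1, αvβ3 and αvβ5, none of them a laminin receptor. They also held the chains of the same 4 trimers, Lama2 or Lama4 with either β chain and Lamc1. In SAT_D-CAN fibroblasts some receptor chains lay close to the limit of 10 CPM. Itga9 stood there at 10.2 CPM (4 UMIs), and Itga5 and Itgb3 at 12.7 CPM (5 UMIs) each.

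Mural cells met the rule for 8 receptors in the tumor and 6 in SAT. Both had α7β1, α1β1, αvβ1 and αvβ5. The rule was met for α5β1, α4β1, α11β1 and αvβ3 in the tumor and for α8β1 and α9β1 in SAT. For α4, α9 and the β3 chain of αvβ3 this rests on few UMIs, as it does for α7 in the tumor. Itgb3 gave 4 and 6 UMIs in tumor mural cells and 0 in those of SAT_PBS, too few to be tested between the tissues. Itga7 gave 5 and 6 UMIs in tumor mural cells. Itga4 gave 12 and 7 UMIs in the tumor and 0 and 13 in SAT and was not called between the tissues, and Itga9 gave 1 and 1 against 2 and 3, too few to be tested. Both held 6 trimers, with Lama2 in the tumor and Lama3 in SAT. Lama3 in SAT mural cells stood at 39.7 CPM (10.8 to 102) and 11.1 CPM (1.35 to 40.1), the latter close to the limit of 10 CPM. Lama5 in tumor mural cells rested on 3 and 4 UMIs. Macrophages met it for 10 receptors in the tumor and 7 in SAT and for no trimer. The rule was met for α6β1, α5β1 and α9β1 in the tumor alone, but of their α chains Itga6 was called between the tissues and Itga5 and Itga9 were not, with 2 and 0 and with 5 and 1 UMIs in SAT. Dendritic cells met it for 4, T or NK cells for 6, with α6β1 their only laminin receptor, and B cells for 3.

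Tumor and SAT were compared in the 4 classes that both held, once between the PBS libraries and once between the D-CAN libraries. A gene was called where the log2 ratio of CPM (0.5 UMI added) was at least 1 in size with the same sign in both pairs, given 20 or more UMIs over the 4 libraries. These calls describe the libraries, since each tissue and treatment was measured once and tissue and library cannot be told apart. Counted by class, there were 22 calls higher in the tumor and 10 lower. The minimum of 20 UMIs covers the 4 libraries together, so a gene can reach it through the tissue where it is high.

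Endothelial cells had the most higher calls. Of 20 genes tested 9 were higher in the tumor, against 5.49% of all 9440 genes tested, and 0 were lower, against 6.59%. The median log2 ratio of the tested members was 0.76 and 0.67 in the PBS and D-CAN pairs, against 0.02 and 0.03 over all genes. The ligands were Fn1, at 2.61 (2.26 to 2.96) and 3.34 (2.82 to 3.91), Lama4, at 2.31 and 1.84, and Lamb1, at 3.54 (2.96 to 4.18) and 2.17 (1.65 to 2.71). The receptor chains were Itgb3, at 4.92 (3.38 to 7.49) and 2.92 (1.22 to 5.15), Itgav, at 1.79 and 3.101, Itga5, at 1.65 and 1.49, Itgb1, at 1.17 and 1.201, Itga9, at 2.79 and 1.83, and Itga2, at 1.62 (-0.19 to 3.24) and 2.35 (0.07 to 5.12). In SAT_PBS 35.8% of endothelial Fn1 UMIs came from 1 cell, and in Tumor_D-CAN 34.1%. Summed mural markers stood at 851 and 1691 CPM in tumor and 1036 and 504 CPM in SAT endothelial cells. The part of mural RNA in the Fn1 values was not tested. For Itga5, 8 of 25 endothelial UMIs in Tumor_PBS came from 1 cell. Itga6 was not called, at -0.34 (-0.73 to 0.02) and -0.58 (-0.94 to -0.25), nor was Lamb2, at -1.15 (-1.999 to -0.47) and -0.99 (-1.73 to -0.36), or Lamc1, at 1.46 (1.003 to 1.90) and 0.55 (0.08 to 0.9995).

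In mural cells 6 of 16 genes were higher in the tumor, against 9.51% of 5162 genes, and 4 were lower, against 12%. The median log2 ratio was 1.22 and 0.59, against -0.01 and -0.06 over all genes. Fn1 differed most, at 4.49 (3.53 to 5.91) and 7.53 (5.99 to 10.9). Itgav, at 1.80 and 1.96, and Itgb5, at 1.56 and 1.75, were higher with it. Itga5 had 0 UMIs in both SAT libraries and was at least 2.50-fold and at least 5.69-fold higher in the tumor, taking 3 counts per library as the floor. In Tumor_D-CAN 1 mural cell gave 7 of 22 Itga5 UMIs and 1 gave 148 of 594 Fn1 UMIs. Itga11 had 1 and 0 SAT UMIs, with a log2 ratio of 1.23 (-1.25 to 7.21) in the PBS pair and an at least 3.11-fold difference in the D-CAN pair. Lama2, with 2 and 1 SAT UMIs, was called at 1.44 (-0.41 to 4.90) and 2.80 (0.60 to 8.74). Itga5, Itga11 and Lama2 reached the minimum of UMIs almost wholly through the tumor libraries, which limits the count and the median above.

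The lower genes in mural cells were Lamb2, at -2.22 (-3.10 to -1.42) and -3.07 (-4.04 to -2.29), Lama5, at -3.24 and -2.48, Itga7, at -2.28 and -2.81, and Itga8, at -3.16 and -2.92. Lamb1 in mural cells was not called, at 1.75 (0.62 to 3.37) and 0.75 (-0.15 to 1.76). The sorted mural cells of the tissues were not alike in other respects. Myh11, a contractile smooth muscle gene, stood at 219 and 142 CPM in tumor and 2164 and 3962 CPM in SAT mural cells, and Col1a1 at 3115 and 4625 CPM against 308 and 72.2 CPM, while Acta2 was at 4792 and 5242 CPM against 4080 and 5334 CPM. The part of this difference in cell makeup in the integrin and laminin values was not tested.

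In fibroblasts 4 of 15 genes were higher in the tumor, against 7.51% of 7794 genes, and 4 were lower, against 6.84%. The median log2 ratio was 0.27 and 0.74, against 0.06 and 0.08 over all genes. The higher genes were receptor chains, Itgb1, at 1.22 (0.92 to 1.54) and 2.09 (1.74 to 2.47), Itgb5, at 1.93 and 1.79, Itga5, at 1.53 and 2.19, and Itga1. Itga1 stood at 35.3 and 94.0 CPM in tumor fibroblasts with 1 and 0 UMIs in SAT, a log2 ratio of 3.43 (1.22 to 9.37) in the PBS pair and at least 12.3-fold in the D-CAN pair. The lower genes included 3 laminin chains, Lamc1, at -1.48 (-2.04 to -0.96) and -1.82 (-2.34 to -1.33), Lamb2, at -1.26 and -1.76, and Lama2, at -1.24 and -1.96. Itgb7 was at least 8.64-fold lower in the PBS pair and at -4.52 (-7.91 to -2.87) in the D-CAN pair. Itga1 reached the minimum of UMIs almost wholly through the tumor libraries and Itgb7 through those of SAT, which limits the counts and the median above. In 1 tumor fibroblast of each library lay 7 of 20 and 11 of 34 of the Itga5 UMIs. Fn1 itself was not called, at 0.27 (0.15 to 0.38) and 0.68 (0.56 to 0.80). Tumor fibroblasts also held 1650 and 2459 CPM of Acta2, the smooth muscle actin of myofibroblasts, against 22 UMIs and 1 UMI (2.54 CPM in SAT_D-CAN) in SAT.

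In macrophages 3 of 14 genes were higher in the tumor, against 5.21% of 8213 genes, and 2 were lower, against 5.86%. The median log2 ratio was 0.11 and 0.33, against -0.08 and -0.09 over all genes. Itgb5, at 2.54 (1.63 to 3.85) and 2.86 (1.66 to 4.92), Fn1, at 1.67 (1.18 to 2.26) and 1.98 (1.35 to 2.78), and Itga6, at 1.71 (0.31 to 4.23) and 1.996 (0.41 to 5.38), were higher. Cancer-cell RNA at the macrophages' epithelial share would account for 43.7 and 26.2 CPM of Fn1 and 14.9 and 9.18 CPM of Itgb5. RNA from other classes was not read this way, and its part was not tested. SAT macrophages also held RNA of the epithelial genes, so the epithelial share does not measure cancer-cell RNA alone. Itgal, at -2.78 (-3.89 to -1.69) and -3.71 (-4.58 to -2.90), and Itgb7, at -1.25 (-2.90 to 0.96) and -2.78 (-4.10 to -1.40), were lower. SAT macrophages numbered 56 and 28.

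**Figure D4:**
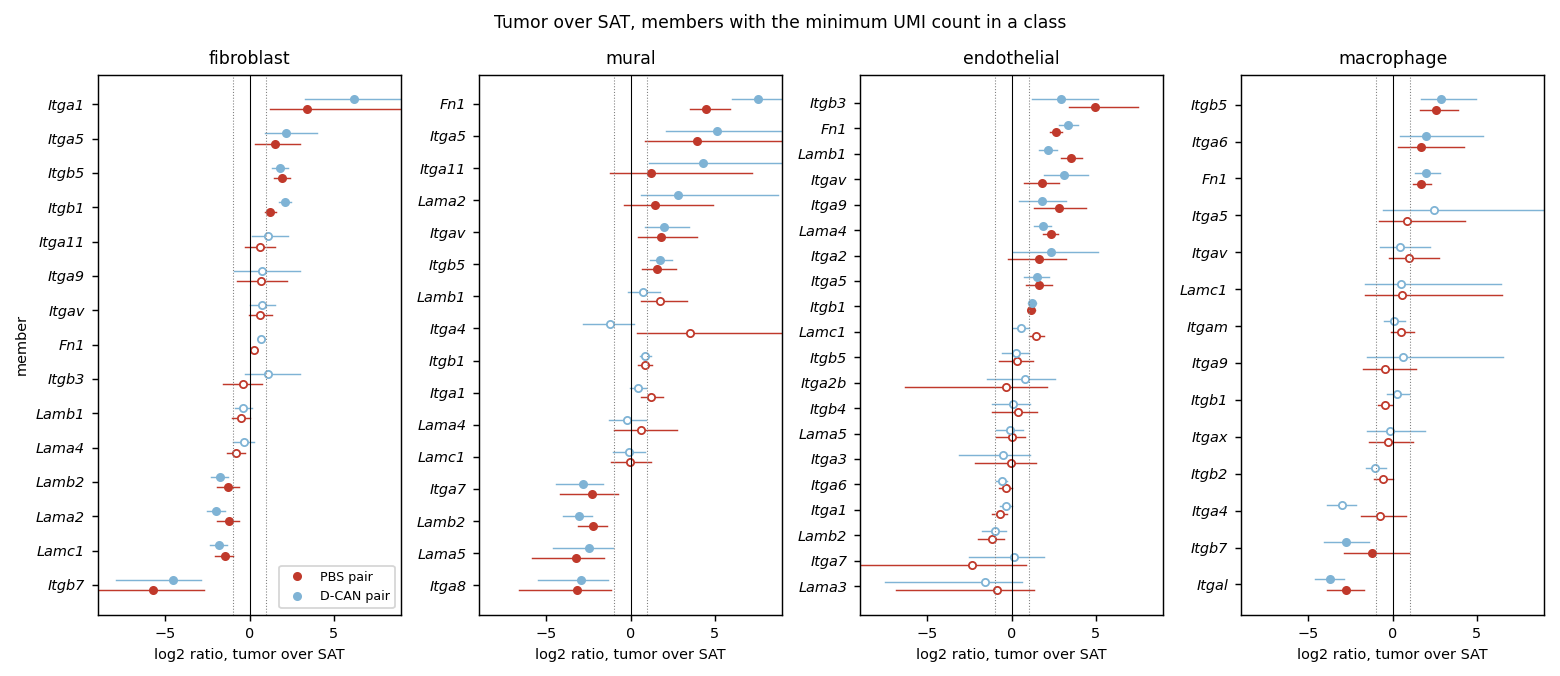
Log2 ratio of tumor over SAT CPM for the genes tested in each class, with the PBS pair and the D-CAN pair as separate points, called genes filled and counting intervals as bars (those past the axis run to its edge). Fn1 lies above 0 in every class and was called in mural cells, endothelial cells and macrophages. Lamb2 lies below 0 in mural cells, fibroblasts and endothelial cells and was not called in the last.

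D-CAN and PBS were compared within each tissue to see whether the same genes moved with treatment. These comparisons reuse the libraries of the tissue comparison. A gene was called at a log2 ratio of at least 1 in size with 20 or more UMIs over both libraries, and 16 passed. The median log2 ratio of the tested members lay between -0.12 and 0.06 in the tumor classes and between -0.27 and 0.64 in those of SAT, against -0.02 to 0.03 and -0.05 to 0.10 over all genes.

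In the tumor 4 calls were made. In cancer cells, 2 of 16 genes were called, against 1.77% of all genes tested: Lamb3, from 0.851 to 2.11 CPM (12 and 26 UMIs, with 34.6% of the latter in 1 cell), and Itga9, from 1.91 to 0.568 CPM. In fibroblasts 1 of 14 was called, against 4.96%, namely Itga1, at 1.37 (0.51 to 2.41). In endothelial cells 1 of 14 was called, against 7.31%, namely Itgb3, at -1.37 (-2.65 to -0.29). In mural cells 0 of 11 were called, against 6.93%, and in macrophages 0 of 14, against 3.79%. The most abundant genes had narrow intervals, which cover counting error only. Fn1 in tumor fibroblasts gave a log2 ratio of -0.04 (-0.15 to 0.06), Fn1 in cancer cells -0.08 (-0.15 to -0.02) and Itgb1 in cancer cells 0.00 (-0.07 to 0.08).

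In SAT 12 calls were made. Endothelial cells had 2 of 16, against 4.6% of all genes: Fn1, at -1.35 (-1.92 to -0.83), and Itgav, at -1.08 (-2.52 to 0.10). Of 7 leukocyte genes tested as a sign of carried-over RNA, 6 were also lower in these cells with D-CAN. The summed fibroblast markers stood at 241 CPM with PBS and 43.5 CPM with D-CAN, and 6 of 8 smooth muscle and stromal genes, Col1a1 and Dcn included, were lower. The part of such RNA in the Fn1 value was not tested. In SAT_PBS 43 of the 120 endothelial Fn1 UMIs (35.8%) came from 1 cell, which limits this call. Fibroblasts had 1 of 12, against 10.4%, namely Itgb3, at -1.67 (-3.54 to -0.30), and Fn1 there gave -0.46 (-0.59 to -0.33). Mural cells had 0 of 9, against 12%.

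Leukocyte chains made up most of the other SAT calls. Macrophages had 2 of 6, against 15.9%, Itga4, at 2.15 (0.96 to 3.68), and Itgal, at 1.42 (0.56 to 2.38), with 6 of 24 and 9 of 34 UMIs of the D-CAN library in 1 cell. Dendritic cells had 3 of 6, against 13.8%, Itgal, at 1.84 (0.12 to 5.25), Itgb7, at 1.60 (0.56 to 3.06), and Itgb2, at 1.14 (0.07 to 2.62), where the PBS library gave 2, 7 and 7 UMIs. With Seurat clusters in place of the marker sort the dendritic calls were lost, since Itgal then gave 6 and 6 UMIs, Itgb7 3 and 3 (log2 ratio -0.0588 for both) and Itgb2 7 and 8 (0.12), in 100 and 44 cells. T or NK cells had 2 of 14, against 3.3%, Itgb3, at 1.08 (-0.08 to 2.50), and Fn1, at -1.34 (-2.94 to 0.02). In the same cells the fibroblast markers stood at 24.6 and 8.49 CPM and 4 of 4 stromal genes tested were lower (Acta2, Tagln, Col1a1 and Dcn), and their part in the Fn1 value was not tested. B cells had 2 of 10, against 4.2%, Lamc1, at 1.04 (0.36 to 1.79), and Itga6, at -1.12 (-2.29 to -0.08).

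**Figure D5:**
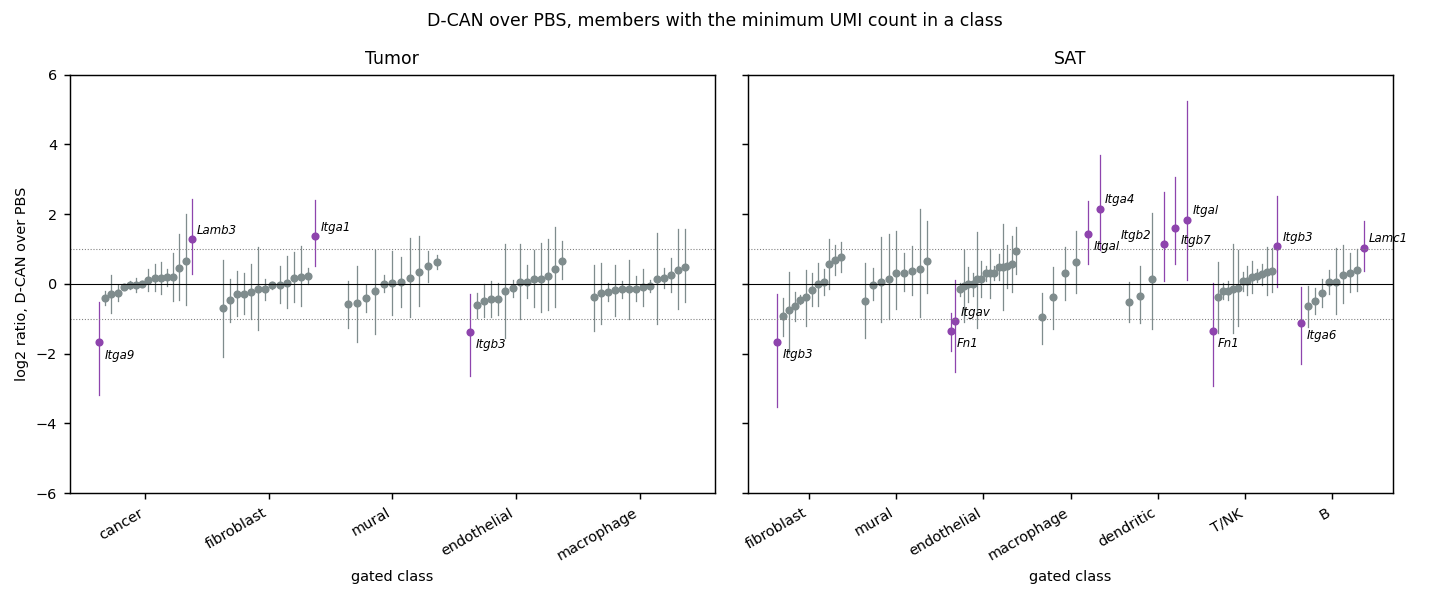
Log2 ratio of D-CAN over PBS CPM for the integrin, laminin and fibronectin genes tested in each class of the tumor and SAT, with called genes named and counting intervals as bars. Most points lie between -1 and 1, with 4 calls in the tumor and 12 in SAT.

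The intracellular partners and other ligands of integrins were read from lists of names. Over all genes, 7.51%, 9.51%, 5.49% and 5.21% were higher and 6.84%, 12%, 6.59% and 5.86% lower in the tumor in fibroblasts, mural cells, endothelial cells and macrophages. Of the adhesion adaptors, which link integrin tails to actin, 6 of 13 tested were higher in tumor fibroblasts than in SAT fibroblasts and 1 was lower, with a median log2 ratio of 1.004 and 1.56. Vinculin (Vcl) stood at 163 and 179 CPM against 34.1 and 20.3 CPM, and α-actinin (Actn1) at 209 and 208 CPM against 29.6 and 2.54 CPM, while paxillin (Pxn) was the lower gene, at 13.6 and 12.9 CPM against 54.6 and 68.6 CPM. In mural cells 1 of 11 adaptors was called higher, in endothelial cells 1 of 12 lower and in macrophages 0 of 10.

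Among basement membrane partners the nidogens, which link laminin to collagen IV, were called higher in tumor endothelial and mural cells. Nid1 stood at 348 and 325 CPM in tumor endothelial cells and 125 and 136 CPM in SAT endothelial cells. Bcam, a laminin α5 receptor outside the integrin family, ran the other way, at 46.1 and 76.6 CPM against 192.5 and 201.3 CPM. In all, 3 of 13 partners were higher and 1 lower in endothelial cells (median log2 ratio 0.83 and 0.58), 3 of 12 and 1 in mural cells, 2 of 11 and 0 in fibroblasts, and 1 of 7 and 0 in macrophages.

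Of the other integrin ligands, those called higher in the tumor were 7 of 12 in fibroblasts, 6 of 11 in mural cells, 5 of 13 in endothelial cells and 6 of 9 in macrophages, with 0, 1, 1 and 2 lower. The median log2 ratio in fibroblasts was 1.55 and 2.78. Spp1, which encodes the RGD protein osteopontin, stood at 9525 and 16029 CPM in tumor fibroblasts against 6.82 and 0 CPM in SAT, and Thbs2, which encodes thrombospondin 2, at 604 and 487 CPM against 232 and 81.3 CPM. Spp1 was called higher in the tumor in every class compared, as were Thbs1 and Ctgf. The part of carried-over RNA in these values was not tested. The lower genes were Vtn in mural cells, Icam1 in endothelial cells and Icam1 and Vcam1 in macrophages, the last 2 genes being ligands of leukocyte integrins.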

How the data were processed

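Barcoded 3′ counts (10x Genomics v3) were made per library by the authors with Cell Ranger 3.1.0, which aligns with STAR 2.6, on mm10 with Ensembl 93 genes. The header of the SAT_D-CAN matrix names version 3.0.2. The deposited values are raw UMI counts for each gene and cell, with no normalization; strand settings are not given in the sources used here. Here, cells with at least 200 genes were kept and placed in the class with the most markers (at least 3 of 12, and 2 more than any other class), and classes of at least 20 cells were used. Counts were summed by class and library and given as CPM. No doublets were removed, since Scrublet called 2, 5, 5 and 4 cells, too few to have worked, and leaving out the 64, 19, 65 and 30 highest scores was an alternative. Calls were tested on simulated data with counting error only, which do not cover spread between libraries or cells. Groups follow the labels, and all genes called or of a fixed list could be named. The genes and lists were chosen with earlier results of these data known, and the leukocyte, smooth muscle and upstream readings after seeing values. A table of 14 alternatives was computed. Python 3.11.15, scipy 1.17.1, pandas 2.3.3, scanpy 1.11.5, R 4.3.3 and Seurat 5.3.0 were used. Library depth ranged from 6667064 to 17996284 UMIs.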

Additional observations from a re-analysis of the deposited data

Results flagged for a closer look

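The tissue difference of Lama2 ran in opposite directions in mural cells and fibroblasts. In mural cells it was higher in the tumor, at log2 ratios of 1.44 and 2.80, and in fibroblasts lower, at -1.24 and -1.96, in the PBS and D-CAN pairs. The mural value exceeded the fibroblast value by 2.68 in the PBS pair and 4.77 in the D-CAN pair. The difference was not tested, and the mural values rest on 2 and 1 UMIs in SAT. With 1 sample a group, no sample could be compared with others of its group.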

How the results depend on the processing

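No paired analysis was possible because each group has 1 sample, and no sample could be left out. The count of calls with D-CAN in the tumor (4) became 7 with Seurat clusters in place of the marker sort, 43 with no minimum of UMIs, 1 with a minimum of 50 and 9 at 1.5-fold. The count in SAT (12) became 76 with no minimum, 5 with 50 UMIs and 22 at 1.5-fold. The count of lower genes in the tumor (10) became 24 with no minimum. With Seurat clusters, Itgal and Itgb7 in SAT dendritic cells turned to -0.0588 each. The cause was not tested, except that the minimum and the fold set how many genes are counted. In the other 54 combinations of a count and an alternative the count stayed within 1.5 times. In all, 1251 of 1281 class levels lay within their counting interval under 6 other gates and filters, as did 82 of 82 Lamb1 shares. The Seurat clusters gave 180 of 206 levels, and the other settings, which sort by the same markers, 213 to 215 of 215. Among the single results other than the counts above, 65 stayed the same with Seurat clusters, 15 moved and 2 reversed. Single results thus depended more on the sort than the class levels did. In the Seurat clustering mural and endothelial cells of SAT shared a cluster (71 cells of each), so mural cells could not be compared there. Depth limits the mural, macrophage and dendritic classes of SAT most.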

Other observations

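Cells that found no class also carried these genes. In them Fn1 stood at 537 CPM (504 to 572) in Tumor_PBS and 324 CPM (290.0 to 361) in Tumor_D-CAN, and at 103 CPM and 33.2 CPM in SAT_PBS and SAT_D-CAN. Itgb4 stood at 25.1 and 38.3 CPM (17 and 15 UMIs) in unsorted SAT cells, a little above the SAT endothelial cells at 20.5 and 30.2 CPM, with intervals that overlap.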
